A study of Arabidopsis thaliana with 6 samples.

Results

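The polygalacturonase family of Arabidopsis thaliana was examined in seedling shoots that had grown in darkness, either in spaceflight or as ground controls. A list of 60 loci of this family was used, and 40 of them had a probe set that the platform annotation assigns to that gene alone; these 40 genes are described here, 1 probe set each, out of 13355 genes so represented on the array. Of the other 20 loci, 10 were annotated to 4 probe sets that each cover several of them, and 10 had no annotated probe set in the table used. Under the annotation used, the loci without a probe set of their own include QRT2, ADPG2 (listed as PGAZAT), PGX1, PGA3 and PGA4. Those listed as PG1, PG2 and JP630 are also among them, and none of these loci are analysed here. That annotation named no gene for 8794 of the 22810 probe sets in the table. A locus without an annotated probe set may therefore still be covered by the array. The list is a mixed one as named, since PG1, PG2 and JP630 belong to the group known in Arabidopsis as polygalacturonase 1 beta-like proteins, which carry a BURP domain and are related to a non-catalytic subunit of the tomato enzyme.

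The spaceflight group held 3 arrays and the ground control group held 3 arrays, and the replicates of both are numbered 2, 3 and 4. Both groups were Landsberg (LER-0) seedlings without any stated mutation or transgene, raised without light in petri dish fixation units of canister hardware and kept in RNAlater before RNA extraction. The sources used here state neither seedling age nor time in flight nor how many seedlings went on an array. They also leave unsaid if replicate arrays had dishes of their own, and every p-value below therefore covers array-to-array spread that may be technical.

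Polygalacturonases are wall enzymes of the glycoside hydrolase family GH28 that cut the galacturonic acid backbone of homogalacturonan, the main pectin, once its methyl groups have been removed by pectin methylesterases. Endo-acting members cut within the chain and loosen the adhesion between cells, while exo-acting members release sugars from the chain end. In Arabidopsis they are known for pollen development and for cell separation in pods, anthers and shedding organs, and PGX1 is named for its part in cell expansion.

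Of the 40 measured polygalacturonase genes, AT4G23820 and AT3G15720 were higher in flown seedlings, by about 4-fold each, and 0 were lower. The other 38 did not pass the test, an adjusted p under 0.05 in limma over all 22746 probe sets. The 2 higher members are 5.0% of the measured family, against a background of 4.13% higher and 1.82% lower among all probe sets, so the share is close to that of the whole array. Without adjustment, 6 members had a p under 0.05 as higher and 2 as lower in limma, against 12.5% and 8.49% of all probe sets. The count of higher members changed with every array left out. It was 0 without flight replicate 3 and 1 without flight replicate 2 or 4 or ground replicate 3 or 4. Without ground replicate 2 it was 3, and 1 member was also lower. Such a fit holds fewer arrays and has less power, so a lost call alone does not show dependence on that array. Over the alternative fits described below, the log2 change was 1.76 to 2.26 for AT4G23820 and 1.55 to 2.38 for AT3G15720.

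All values are log2 expression values as deposited, with array medians of 2.15 to 2.24. Control probe sets for Bacillus subtilis genes gave a yardstick for low readings: 26 of the 27 lay between 0.90 and 1.87, and the remaining one, for a segment of a Thr gene, at 2.34 to 2.42 in flight and 2.65 to 3.24 on the ground, was left out of it. The sources used here do not say if these bacterial transcripts had been added to the samples. The highest of the 26 on each array averaged 1.70 over the 6 arrays, and this value is called the control level. The arrays of a group differed in seed transcripts, with the seed storage gene PAP85 between 1.30 and 7.38 in flight and between 1.54 and 10.91 on the ground. The seed storage mean used below was taken over PAP85 and the seed markers AT3G01570 and OLEO3, so it is not a measure of storage proteins alone. It was 1.81 to 4.96 on flight arrays and 1.78, 8.44 and 8.53 in ground replicates 2, 3 and 4. As a covariate it is therefore partly confounded with group. The mean of the hybridization spike-ins was 10.13 to 10.19 on the flight arrays and 10.20, 10.19 and 9.61 for ground replicates 2, 3 and 4. Of the shoot epidermis markers 0 of 4 had a single-gene probe set in the annotation used, so the labelled tissue could not be checked against them. Of the root markers 3 of 6 were measured: EXPA7 and EXPA18, of root hairs, read 0.96 to 1.55 in flight and 1.14 to 1.89 on the ground, and PYK10, a beta-glucosidase of seedling roots and hypocotyls, read 10.71 to 10.87 in flight and 9.45 to 10.61 on the ground. In whole shoots, fewer cells of a type and less RNA per cell cannot be told apart.

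AT4G23820 showed the larger and steadier difference. It read 7.23, 7.78 and 7.35 in flight replicates 2, 3 and 4, against 5.81, 5.53 and 4.87 in ground replicates 2, 3 and 4. All flight arrays lay above all ground arrays, and the gap between the groups was wider than the range within either. The mean log2 values were 7.45 ± 0.29 for flight arrays and 5.40 ± 0.48 for ground arrays (SD, n = 3 each). The log2 change was 2.05 (SE 0.27, 95% interval 1.41 to 2.69), a 4.15-fold higher value in flight, with a limma adjusted p of 0.0101. Among the 939 probe sets that were higher in flight, this change ranked 130 by size. The lowest ground value came from ground replicate 4, the array with the lowest spike-in mean, and a fit on the remaining arrays gave 1.78 (adjusted p 0.0170). Without flight replicate 3, its highest array, the change was 1.89 and the adjusted p 0.0536, and with any other array left out it passed.

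AT3G15720 showed a change of like size with a wider spread. Its values were 5.48, 3.82 and 4.40 in flight replicates 2, 3 and 4, against 2.98, 1.97 and 2.73 in ground replicates 2, 3 and 4. The groups did not overlap, but the flight arrays spanned more than the gap to the highest ground array. It averaged 4.57 ± 0.85 on the flight arrays and 2.56 ± 0.53 on the ground arrays (SD of log2 values, n = 3 each), and the log2 change of 2.01 (SE 0.45, 95% interval 0.96 to 3.06) corresponds to 4.02-fold. Its limma adjusted p of 0.0469 lay just under the threshold, and its change ranked 144 of 939 by size. Quantile normalization (adjusted p 0.0568), median centring (0.0532) and a covariate for mean seed storage expression (0.142) each gave no call, and it did not pass when any 1 array other than ground replicate 2 was left out (0.0677 to 0.125). Its lowest ground value, in ground replicate 3, was not far above the control level of 1.70, so that low readings enter this change.

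**Figure D1:**
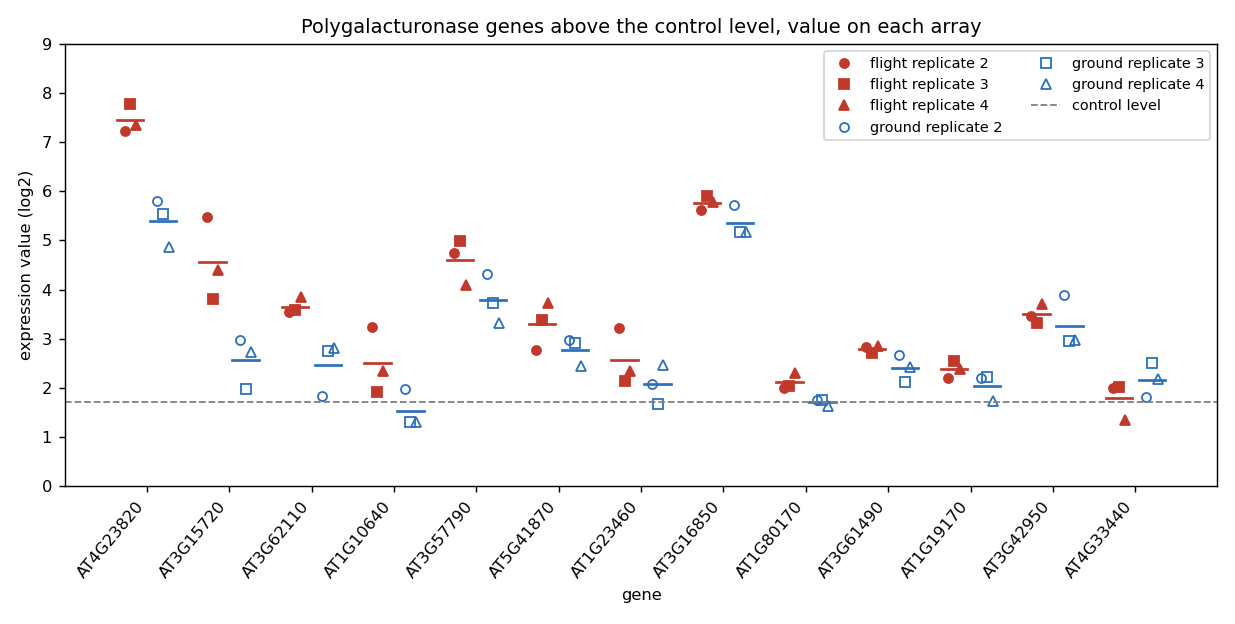
Expression values (log2, vertical axis) of the 13 polygalacturonase genes whose mean over 6 arrays lay above the control level, with flight arrays as filled red symbols on the left of each gene and ground arrays as open blue symbols on the right, a bar at each group mean of 3 arrays and a dashed line at the control level of 1.70. The flight values of AT4G23820 (7.23 to 7.78) and of AT3G15720 (3.82 to 5.48) lie wholly above their ground values (4.87 to 5.81 and 1.97 to 2.98).

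AT3G62110 came closest to the threshold among the members that did not pass, and was singled out with its values known. Its readings were 3.54, 3.59 and 3.84 in flight replicates 2, 3 and 4, against 1.84, 2.75 and 2.81 in ground replicates 2, 3 and 4. The flight values were close together and all above the ground values, of which ground replicate 2 was the lowest by a wide margin. The log2 difference was 1.19 (SE 0.27, 95% interval 0.55 to 1.83) with a limma adjusted p of 0.0521. It was under the threshold in 5 of 9 alternatives that kept all arrays. Among these 9, the mean of a gene's probe sets left its change as it was. The lowest adjusted p was 0.0110, with the seed storage mean as a covariate, and the highest was 0.169, after spike-in centring. Without ground replicate 2 the difference was 0.87 and the adjusted p 0.0265, and with any other array left out it did not pass.

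AT3G57790 and AT3G16850 read clearly above the control level on every array in both groups and did not pass. AT3G57790 read 4.74, 4.98 and 4.09 in flight replicates 2, 3 and 4, against 4.32, 3.72 and 3.32 in ground replicates 2, 3 and 4. The groups overlapped through flight replicate 4 and ground replicate 2, and the log2 difference was 0.82 (95% interval 0.07 to 1.57, limma adjusted p 0.199). AT3G16850 read 5.61, 5.91 and 5.78 in flight replicates 2, 3 and 4, against 5.73, 5.17 and 5.18 in ground replicates 2, 3 and 4. Here too ground replicate 2 lay within the flight range. The difference was 0.41 (95% interval -0.05 to 0.87, limma adjusted p 0.291), and its interval holds both 0 and a difference well above that of the estimate.

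Several members with low values had their highest reading in flight replicate 2, and were singled out with their values known. AT1G10640 read 3.23, 1.92 and 2.35 in flight replicates 2, 3 and 4, against 1.97, 1.31 and 1.30 in ground replicates 2, 3 and 4. AT1G23460 read 3.21, 2.14 and 2.33 in flight replicates 2, 3 and 4, against 2.08, 1.67 and 2.47 in ground replicates 2, 3 and 4. Within flight both genes therefore followed the order seen for AT3G15720, with replicate 2 highest and replicate 3 lowest. Neither passed, with log2 differences of 0.97 (limma adjusted p 0.175) and 0.49 (0.467). The probe set of AT1G23460 carries the suffix that Affymetrix gives to sets matching more than 1 transcript, although the annotation names a single gene, so its value is uncertain as a reading of that gene alone.

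The remaining members above the control level, also singled out with their values known, were AT5G41870, AT3G61490, AT3G42950, AT1G19170, AT1G80170 and AT4G33440, with log2 differences between -0.38 and 0.52 and limma adjusted p of 0.165 to 0.705. AT1G80170 read 2.01, 2.03 and 2.30 in flight replicates 2, 3 and 4, against 1.75, 1.75 and 1.63 in ground replicates 2, 3 and 4. Its groups did not overlap, yet its difference of 0.40 was small and its adjusted p was 0.165. AT4G33440 was the 1 member of this set with a lower mean in flight, at 1.79 ± 0.38 on flight arrays and 2.17 ± 0.35 on ground arrays (SD, n = 3 each), and its groups overlapped. AT3G61490 read 2.71 to 2.85 in flight and 2.12 to 2.68 on the ground, without overlap.

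**Figure D2:**
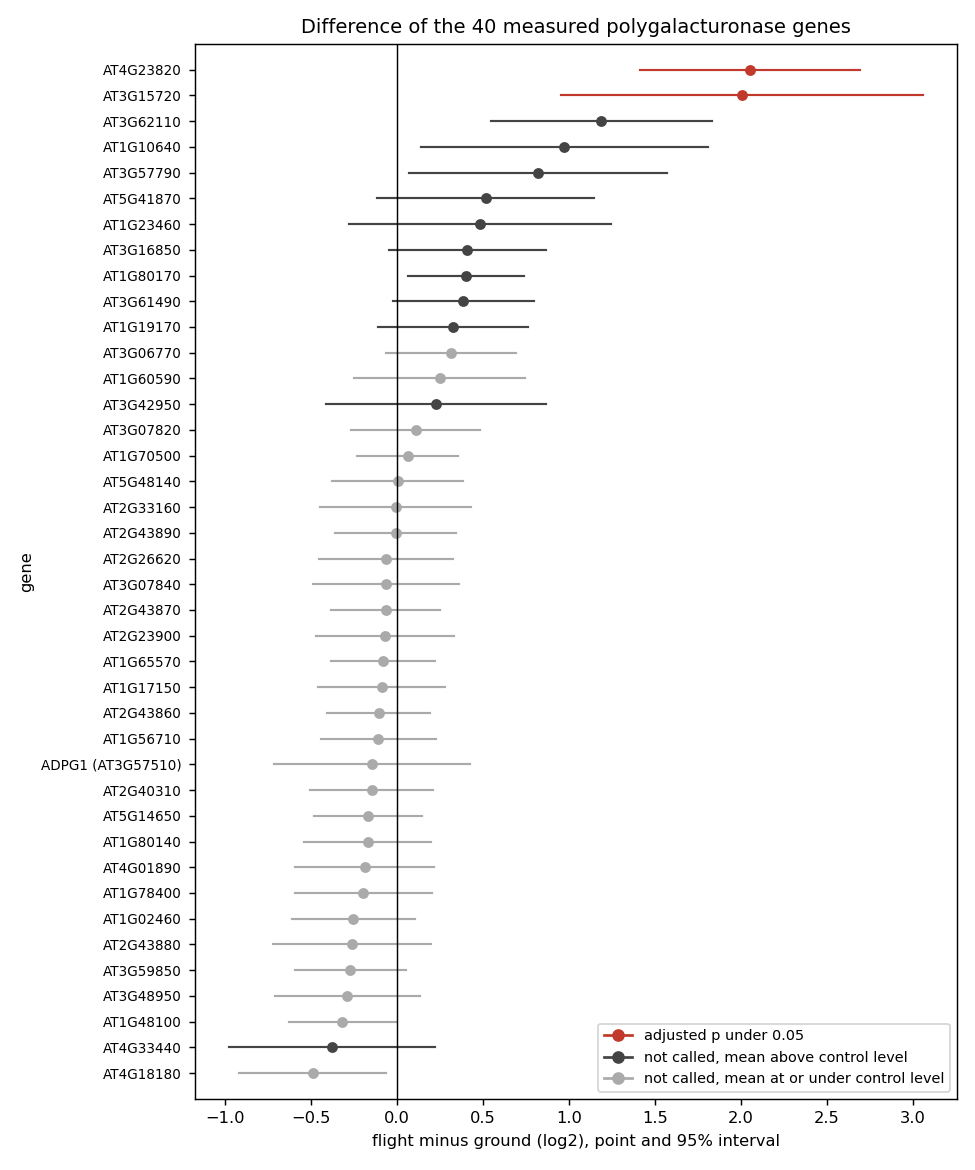
Flight minus ground difference (log2, horizontal axis) of each of the 40 measured polygalacturonase genes, as a point with limma's 95% interval, coloured by whether the gene passed and by its mean over 6 arrays relative to the control level. AT4G23820 and AT3G15720 stand at 2.05 and 2.01, and the other 38 genes lie between -0.49 and 1.19.

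The other 27 measured members had a mean over the 6 arrays at or under the control level, with single readings from 0.72 to 1.99, so most of the family gave readings like those of the bacterial controls in these shoots. A reading at that level does not show that a gene was silent. Among all 8476 probe sets at or under the control level, 13 were called higher and 4 lower, and 0 of these 27 members were called in either direction. ADPG1, whose product acts in the dehiscence zone of pods, read 1.21, 1.23 and 1.07 in flight replicates 2, 3 and 4, against 1.86, 1.15 and 0.94 in ground replicates 2, 3 and 4, so that only ground replicate 2 stood above the rest. AT2G33160, listed under the name NIMNA and singled out with its values known, averaged 1.55 ± 0.27 on flight arrays and 1.56 ± 0.19 on ground arrays (SD, n = 3 each).

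The members that neighbour PGA3 on the chromosome were also low. AT3G07820, next to PGA3, read 1.02, 1.17 and 1.48 in flight replicates 2, 3 and 4, against 1.06, 1.11 and 1.18 in ground replicates 2, 3 and 4. AT3G07840, on the other side of PGA3, read 1.42, 1.84 and 1.49 in flight replicates 2, 3 and 4, against 1.46, 1.87 and 1.60 in ground replicates 2, 3 and 4. Their differences of 0.11 and -0.06 were smaller than the range of readings within each group, though the first exceeded its ground SD of 0.06. AT3G07820 turned negative after spike-in centring (-0.04), while AT3G07840 turned positive with the seed storage covariate (0.01). AT5G48140 differed by 0.0049, with a 95% interval of -0.38 to 0.39. Of the pollen markers 1 of 6 was measured, the histone gene MGH3 of male gametes, at 1.47 to 1.72 in flight and 1.56 to 1.86 on the ground.

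AT1G48100, named for a role in cell expansion (PGX), showed a small difference the other way. It read 1.41, 1.30 and 1.52 in flight replicates 2, 3 and 4, against 1.69, 1.77 and 1.71 in ground replicates 2, 3 and 4. The groups did not overlap, but all 6 readings were within the range of the bacterial controls, and the difference of -0.32 (95% interval -0.63 to -0.01) had a limma adjusted p of 0.227. AT1G78400, named for the same role, differed by -0.20 (0.583), and AT5G14650, named as characterised in root (PGLR), by -0.17 (0.548), both with overlapping groups. AT4G18180, singled out with its values known, had the lowest difference of the family. It read 1.09, 1.11 and 1.12 in flight replicates 2, 3 and 4, against 1.23, 1.77 and 1.78 in ground replicates 2, 3 and 4. Its difference was -0.49 with a limma adjusted p of 0.182, and without ground replicate 2 it was -0.67 with an adjusted p of 0.0372. All its readings were within the range of the 26 bacterial controls taken over all arrays, 0.90 to 1.87. In ground replicate 4, however, its 1.78 lay above the highest of these controls on that array, 1.75. Ground replicates 3 and 4, where it read highest, are the arrays with the highest seed storage means, 8.44 and 8.53. With the seed storage mean as a covariate the difference was -0.27 (limma adjusted p 0.456). The cause of the AT4G18180 difference was not tested.

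The direction of the differences divided with the level of the genes. Of the 13 members with a mean above the control level, 12 had a positive difference and the median was 0.49, while over all 14270 probe sets above that level 54.2% were positive and the median was 0.05. Of the 27 members at or under the control level, 5 had a positive difference and the median was -0.10, against 34.5% positive and a median of -0.06 over the 8476 probe sets at or under it. The 27 bacterial control probe sets gave 6 positive differences and a median of -0.10, the same median to 2 decimals as that of the low members. This division by level was chosen after the values were seen and is a description without a test. It used the mean over 6 arrays, so flight readings helped decide which set a member entered. AT1G10640 was placed above the control level although its ground mean of 1.53 lay under it. AT1G02460 and AT1G48100 were placed at or under the level although their ground means, 1.75 and 1.72, lay above it. The count of 12 of 13 therefore depends in part on how the sets were formed. Above the control level 2 members passed as higher, where the background was 6.49% higher and 2.87% lower. Over all 40 members the median difference was -0.06, beside -0.02 over all probe sets. Groups that did not overlap were found with flight above in 6 members and with flight below in 3, against backgrounds of 14.2% and 11.8% of all probe sets.

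**Figure D3:**
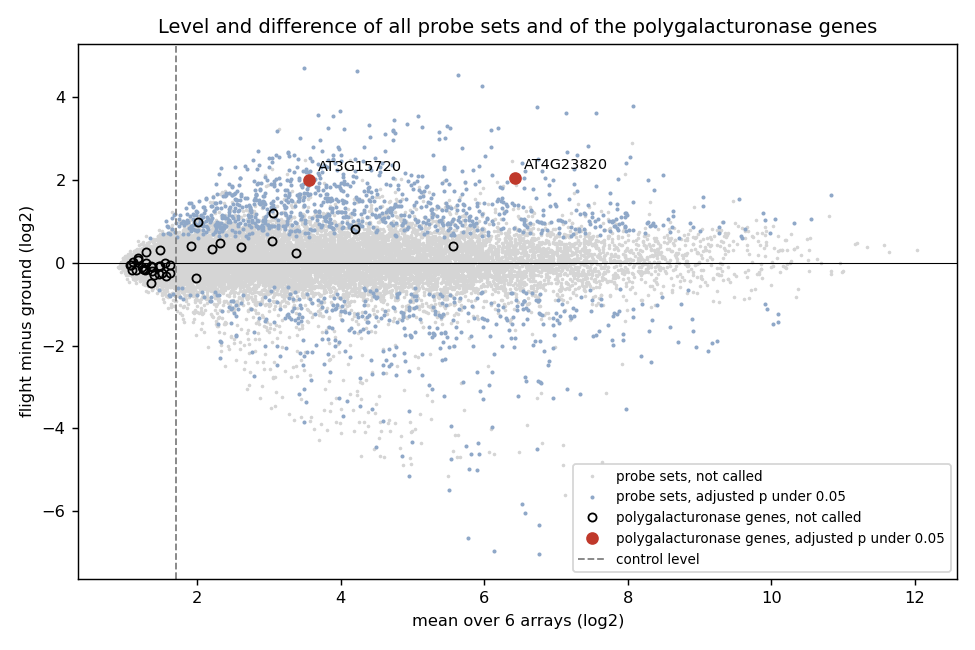
Flight minus ground difference (log2, vertical axis) against the mean over 6 arrays (log2, horizontal axis) for all 22746 probe sets (grey, or blue where the adjusted p was under 0.05) and for the 40 polygalacturonase genes (open circles, or red where they passed), with a dashed line at the control level of 1.70. Most of the family sits left of the line near 0, and the 13 genes right of it lie above 0 except AT4G33440 at -0.38.

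Members that lie side by side on a chromosome did not include the genes that were higher. By the order of protein-coding genes in RefSeq (TAIR10.1), 15 of the 60 loci form 5 runs of adjacent members, of 2 to 4 loci each. Of these 15 loci 5 were measured, the run of AT2G43870, AT2G43880 and AT2G43890 and the PGA3 neighbours AT3G07820 and AT3G07840, and all 5 had means at or under the control level. The 4 probe sets shared by several members, which cover 10 loci without a probe set of their own, read 0.86 to 1.41 on all arrays with differences of -0.30 to -0.05. They cannot be assigned to a single gene.

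Genes that act on the same polymer gave a comparison for the family. Of 59 other pectin genes listed, 15 were measured, and 3 of them were higher in flight and 0 lower, 20.0% against the same background of 4.13% higher. Of the 15, 10 had a mean above the control level, where the background was 6.49% higher. The list was chosen with earlier results of these data known, so this share is a description and no test. Without adjustment 0 of the 15 were lower at a p under 0.05 in limma, and the count of higher genes was 1 without flight replicate 2 or 3. The median difference of the 15 was 0.40. By role, 2 of 9 measured pectin methylesterases and 1 of 4 measured methylesterase inhibitors were higher, while the 1 measured pectin acetylesterase and the 1 measured gene of homogalacturonan synthesis did not pass. Genes for polygalacturonase-inhibiting proteins and pectin-binding kinases had 0 of 4 measured.

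AT3G49220, of the methylesterase list, had the largest difference of these. It read 7.93, 8.19 and 7.92 in flight replicates 2, 3 and 4, against 5.27, 5.96 and 5.25 in ground replicates 2, 3 and 4. The groups were far apart, by 2.51 on the log2 scale (SE 0.22, limma adjusted p 0.00354). AT3G49220 passed under all 15 alternatives run for it, although the mean of a gene's probe sets, among these, left its change as it was. PMEPCRF (AT5G53370), a pectin methylesterase gene, averaged 5.17 ± 0.51 on flight arrays and 3.53 ± 0.43 on ground arrays (SD, n = 3 each), higher by 1.65 (limma adjusted p 0.0297).

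AT4G25260, from the list of methylesterase inhibitors, which block demethylation of pectin, averaged 5.93 ± 0.11 on flight arrays and 4.04 ± 0.83 on ground arrays (SD, n = 3 each). Its change was 1.89 with a limma adjusted p of 0.0357, and ground replicate 4 was its lowest array at 3.08. With the seed storage covariate PMEPCRF (adjusted p 0.0954) and AT4G25260 (0.111) did not pass, and each also missed in 3 of 6 fits with 1 array left out. The acetylesterase-list gene AT3G05910, at 5.44, 5.38 and 5.05 in flight replicates 2, 3 and 4 against 3.90, 4.78 and 3.36 in ground replicates 2, 3 and 4, had a difference of 1.28 (adjusted p 0.0815). AT3G43270, of the methylesterase list, had a difference of 0.98 (0.238) with overlapping groups.

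**Figure D4:**
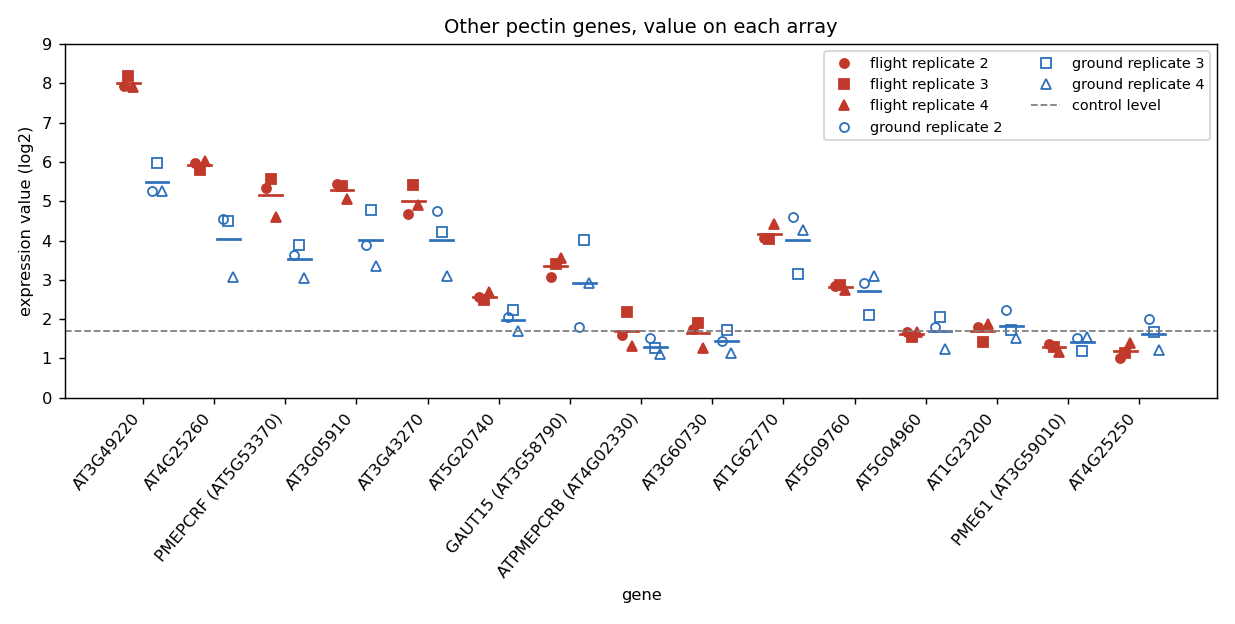
Expression values (log2, vertical axis) of the 15 other pectin genes measured, with flight arrays as filled red symbols on the left of each gene and ground arrays as open blue symbols on the right, a bar at each group mean of 3 arrays and a dashed line at the control level of 1.70. AT3G49220 lies at 7.92 to 8.19 in flight and 5.25 to 5.96 on the ground.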

How the data were processed

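The labels' protocols name a column kit for RNA and a whole-transcriptome amplification kit with biotin labelling. The values are those of the deposited table of 22810 probe sets on 6 arrays, taken as log2 expression as the authors deposited them. Per the submitters' processing notes, PLIER, RMA and MAS5 were among the tools; their roles, and the background correction behind this table, are unstated in these sources. That the scale is log2 was inferred from the range of the values.

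The 64 control probe sets were left out, and the other 22746 were tested with limma 3.58.1 under R 4.3.3 (flight against ground, lmFit then eBayes, two-sided, no covariates, Benjamini-Hochberg over all of them). A gene was called at an adjusted p under 0.05. SE and 95% intervals are limma's moderated ones, and ± is the SD over 3 arrays. Probe sets were named through the platform annotation and RefSeq (TAIR10.1): 13513 had a single gene, 13436 of them matched by gene identifier. Each measured family member had 1 such probe set. No coordinates are given, since the files name no genome build.

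Named members are those that passed, those with a group mean of at least 4, and loci chosen by known roles; others named were chosen after their values were seen, as the text says. The family members and gene lists were chosen with earlier results of these data known. Same-numbered replicates were checked for pairing: their deviations correlated at 0.20, -0.03 and 0.27 for replicates 2, 3 and 4. Differently numbered arrays gave -0.39 to 0.23. With 3 arrays per group this check could not settle pairing. The numbers were not taken as pairs, since the samples share only a number, and the replicate block was run as an alternative. Arrays correlated at 0.895 to 0.982, and none were identical. Alternatives were other scalings, a filter on dim probe sets, a trended and robust prior, array weights, the replicate block, a seed storage covariate, each array left out, other thresholds and the mean of a gene's probe sets. Plots were made in matplotlib 3.10.9.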

Additional observations from a re-analysis of the deposited data

How the results depend on the processing

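The 3 arrays per group limit the precision of every value, and readings near the control level limit what could be seen in most polygalacturonase genes. Higher polygalacturonase genes numbered 2, and 1 with quantile normalization or median centring, 0 at an adjusted p under 0.01, 3 with dim probe sets left out, the trended and robust prior, array weights or an adjusted p under 0.1, and 0 to 3 with 1 array left out (0 without flight replicate 3, 3 without ground replicate 2, 1 without each of the others). With the seed storage covariate 2 were higher, but not the same 2. There AT3G15720 did not pass (limma adjusted p 0.142) and AT3G62110 did (0.0110). The count of lower members was 0 except without ground replicate 2, where it was 1, so it ran from 0 to 1. Higher genes among the other pectin genes numbered 3, and 1 with the seed storage covariate or at an adjusted p under 0.01. They numbered 4 with the trended and robust prior or at an adjusted p under 0.1, and 1 to 4 with 1 array left out (1 without flight replicate 2 or 3). The median difference of the members was -0.06, and it was -0.023 with quantile normalization, -0.12 with median centring, -0.21 with spike-in centring, which moved the median of all probe sets to -0.17, 0.52 once dim probe sets were left out, which removes the low members, and -0.075 to 0.025 with 1 array left out. The seed storage covariate gave -0.08. With the replicate block 3 polygalacturonase genes were higher, the third being AT3G62110 (adjusted p 0.0447), and 3 other pectin genes; the samples share only a number, and the block changed no other call among the genes named.

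Differences near 0 changed sign in genes at the control level: AT5G48140 with median centring (-0.052), spike-in centring (-0.15) and array weights (-0.0047), and between -0.093 and 0.13 with 1 array left out; AT3G07820 with spike-in centring (-0.044), and between -0.020 and 0.21; AT3G07840 with the seed storage covariate (0.0099), and between -0.19 and 0.052; and ADPG1 (AT3G57510) between -0.33 and 0.13. Median centring and spike-in centring each subtract 1 number per array, which moves the differences of all probe sets by the same amount. The median over all probe sets went from -0.02 to -0.08 with median centring and to -0.17 with spike-in centring. Sign changes under these settings follow from that shift. The cause of the other sign changes was not tested.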
